A study of Mus musculus with 3 samples.

Results

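Small leucine-rich proteoglycans of the decorin family and 4 secreted matrix glycoproteins were followed across 3 kidney arrays. The 10 genes were taken by symbol: the proteoglycan genes Dcn (decorin), Bgn (biglycan), Aspn (asporin), Lum (lumican), Fmod (fibromodulin) and Ogn (osteoglycin), and the glycoprotein genes Postn (periostin), Fn1 (fibronectin), Tnc (tenascin C) and Sparc (osteonectin). All 10 were among the 19938 genes measured, each by 1 probe set. The arrays, of the Affymetrix Mouse Gene 1.0 ST type, each read kidney RNA of female mice labelled CBL/6 and aged 8 to 10 weeks. The NTS/PGE2 array came from mice injected with sheep nephrotoxic serum (NTS, 13.5 ug per g of body weight), an antiserum that causes an immune nephritis, and then given prostaglandin E2 (PGE2, 5 ug per g of body weight) daily from day 2. The NTS array came from mice given the serum without PGE2, and the control array from untreated mice. Treated mice were killed on day 7. The labels do not say whether an array held RNA of 1 mouse or of a pool, and they name no vehicle.

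Decorin family members are short secreted proteins built of leucine-rich repeats, most of them carrying sulfated sugar chains. They bind collagen fibrils and limit how thick the fibrils grow, and decorin, biglycan and asporin also bind the growth factor TGF-beta. Matricellular proteins such as periostin, tenascin C and osteonectin add little to the strength of the matrix but alter how cells attach and respond to it, and they are known to appear in the kidney after injury. Fibronectin is a structural adhesion glycoprotein that is laid down early in repair.

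Levels are the authors' log2 values from the RMA method, in which a difference of 1 is a 2-fold difference. With 1 array per group there was no replicate spread and no test, and precision is limited by having so few arrays. A technical yardstick came from 465 genes read by a pair of bright probe sets. The SD of a difference, from the gap within such pairs, was 0.19 in both comparisons that use the NTS array and 0.12 between NTS/PGE2 and control. This leaves out the spread between animals. Genes were compared only where the brighter value was at or above the array median over all probe sets, a rule called the filter on dim genes here. The method returned exactly equal values on all 3 arrays for 25.4% of probe sets, so an equal value does not show that a transcript was the same. Kidney markers were bright on every array: the mean log2 value of 7 nephron genes was 12.19 in NTS/PGE2 kidney, 11.14 in NTS kidney and 11.99 in control kidney. Marker genes of fat and urothelium stood far higher on the control array than on the treated arrays. The mean of 10 fat genes was 7.16 in NTS/PGE2 kidney, 7.20 in NTS kidney and 9.94 in control kidney, and that of 6 urothelium genes was 6.87, 6.94 and 8.17 in the same order. The part of these tissues in the members' differences from control was not tested. The comparison of NTS/PGE2 with NTS does not use the control array.

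The proteoglycan and glycoprotein members mostly differed in opposite directions. All 6 proteoglycan genes were lower in NTS kidney than in control kidney and higher in NTS/PGE2 kidney than in NTS kidney. Fn1, Tnc and Sparc had the opposite order in both comparisons. Postn was lower than control on both treated arrays. The median difference of the 6 proteoglycan genes was -1.71 between NTS and control and 1.40 between NTS/PGE2 and NTS, beside a median of 0 over all 19938 genes measured in each comparison. These medians take Aspn and Lum too, which failed the filter on dim genes in every comparison. In whole kidney RNA, fewer cells of a type and less RNA per cell cannot be told apart.

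**Figure D1:**
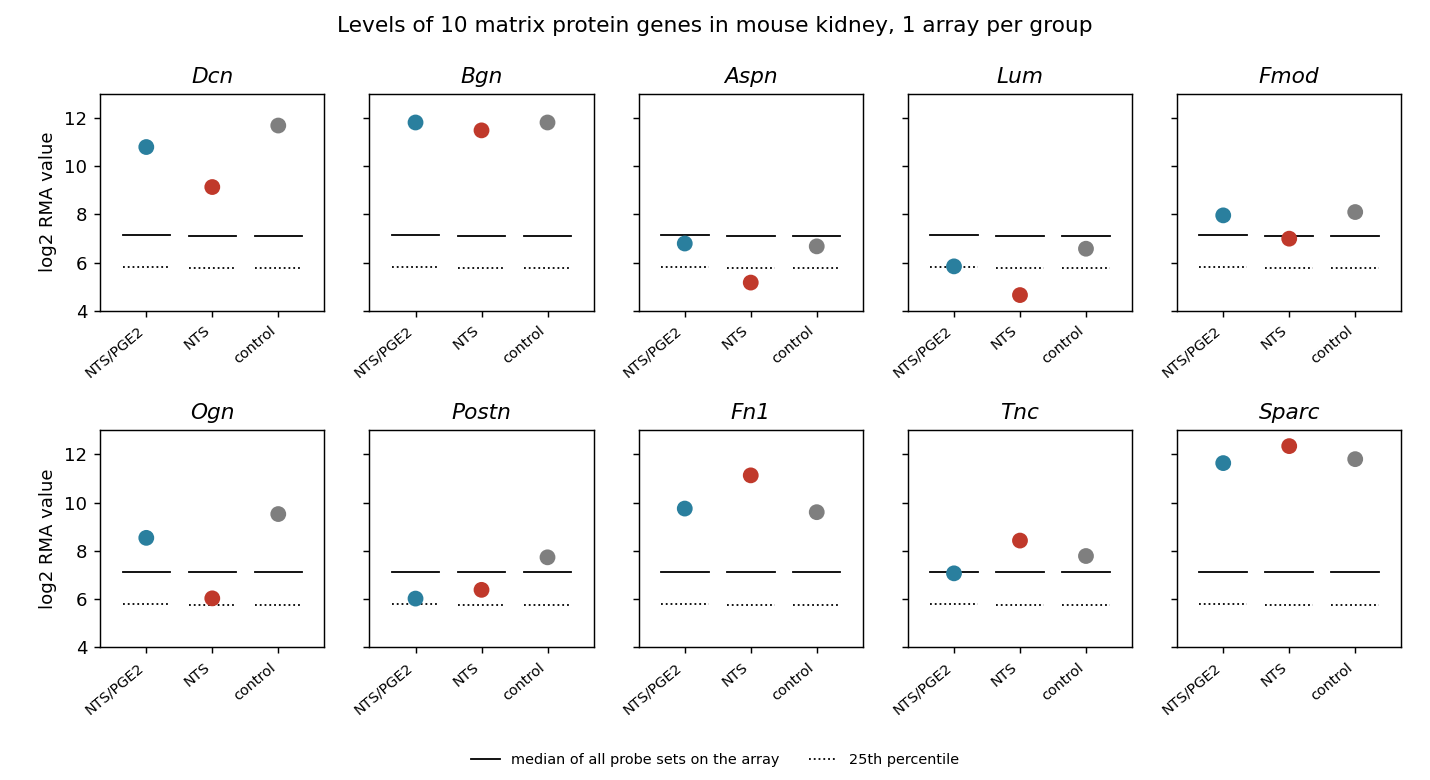
The log2 RMA value of each member (vertical axis) on the NTS/PGE2, NTS and control arrays, 1 point per array, with the median of all probe sets (solid line) and the 25th percentile (dotted line). The NTS point is the lowest of the 3 for Dcn, Bgn, Aspn, Lum, Fmod and Ogn and the highest for Fn1, Tnc and Sparc, while for Postn both treated arrays lie below control.

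Osteoglycin showed the widest difference among the members in both comparisons with the NTS array. Ogn, a proteoglycan also called mimecan, had a log2 value of 8.54 in NTS/PGE2 kidney, 6.03 in NTS kidney and 9.53 in control kidney. Its level in NTS kidney was 8.88% of the control level, an 11.3-fold difference, and this difference ranked 16th from the bottom among 11778 genes that passed the filter. The NTS value lay under that array's median of 7.11 and not far above its 25th percentile of 5.78, so Ogn passed through its control value alone and the size of the difference is uncertain. In NTS/PGE2 kidney it was 5.68-fold above NTS, ranking 53rd from the top of 11699 genes, and still 1.98-fold below control.

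Decorin, which gives the family its name, had the next widest difference among the members. Dcn, whose product coats collagen I fibrils, had 10.79 in NTS/PGE2 kidney, 9.13 in NTS kidney and 11.68 in control kidney. NTS kidney was lower than control by a log2 difference of -2.55, which is 17.1% of the control level, and NTS/PGE2 kidney was 3.16-fold above NTS. The NTS/PGE2 value lay between those of the other 2 arrays, with a difference of -0.89 from control.

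Biglycan, the closest relative of decorin among the members and a ligand of Toll-like receptors, moved little. Bgn had 11.80 in NTS/PGE2 kidney, 11.48 in NTS kidney and 11.80 in control kidney, the first and last values being identical. The NTS difference of -0.33 was 1.69 times the technical SD. It lay inside the range from -1.04 to 0.74 between the 5th and 95th percentiles of all genes compared.

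Asporin and lumican were dim. Aspn, which binds collagen and TGF-beta, had 6.79 in NTS/PGE2 kidney, 5.17 in NTS kidney and 6.67 in control kidney. Lum, a keratan sulfate proteoglycan, had 5.84 in NTS/PGE2 kidney, 4.65 in NTS kidney and 6.57 in control kidney. Both NTS values were under the 25th percentile of that array, 5.78, and may be background, so the size of these differences is uncertain. Neither gene came up to the array median in any group, and both therefore failed the filter on dim genes in every comparison. Their differences were -1.50 for Aspn and -1.92 for Lum in NTS against control, and 1.62 and 1.19 in NTS/PGE2 against NTS.

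Fibromodulin, which shares its collagen binding region with lumican, had a level of 7.95 in NTS/PGE2 kidney, 6.99 in NTS kidney and 8.09 in control kidney. The NTS level of Fmod was 46.5% of control, a difference of -1.10. NTS/PGE2 kidney was 1.95-fold above NTS, just short of 2-fold, and differed from control by -0.14.

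Among the glycoproteins, fibronectin had the widest positive difference. Fn1, which links collagen to integrins, had 9.75 in NTS/PGE2 kidney, 11.13 in NTS kidney and 9.60 in control kidney. NTS was 2.88-fold above control, ranking 126th from the top among the genes compared, and NTS/PGE2 was 2.60-fold below NTS, ranking 182nd from the bottom. The NTS/PGE2 value was within 0.15 log2 units of control. The probe set does not tell the cellular and plasma forms of fibronectin apart, and the plasma form is made by liver. Of 5 liver genes measured, none was higher in NTS kidney than in control kidney, and albumin (Alb) had 10.51 in NTS/PGE2 kidney, 7.57 in NTS kidney and 9.86 in control kidney. The part of liver RNA in the Fn1 values was not tested.

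Tenascin C, a glycoprotein of wound edges and developing tissue, ended below its control level. Tnc had 7.07 in NTS/PGE2 kidney, 8.43 in NTS kidney and 7.79 in control kidney. The NTS difference of 0.64 was 3.30 times the technical SD and under 2-fold. NTS/PGE2 was 2.56-fold below NTS, ranking 197th from the bottom, and 1.64-fold below control.

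Osteonectin, a collagen-binding protein that loosens cell attachment, had smaller differences at a bright level. Sparc had 11.64 in NTS/PGE2 kidney, 12.34 in NTS kidney and 11.80 in control kidney. The NTS level was 1.45-fold above control and the NTS/PGE2 level was 1.63-fold below NTS. The difference between NTS/PGE2 and control was -0.16.

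Periostin, a matricellular protein that binds collagen and integrins and is known as a marker of renal injury, did not follow the other glycoproteins. Postn had 6.02 in NTS/PGE2 kidney, 6.39 in NTS kidney and 7.73 in control kidney. NTS/PGE2 was 3.27-fold and NTS 2.55-fold below control, the former ranking 32nd from the bottom of 11534 genes. Postn passed the filter in both through its control value alone. The difference of -0.36 between NTS/PGE2 and NTS was between 2 values that were both under the array median, and Postn failed the filter there. Fat and urothelium markers moved the same way: 9 of 10 fat genes and 6 of 6 urothelium genes were lower in NTS kidney than in control kidney, and 9 of 10 and 6 of 6 were lower in NTS/PGE2 kidney than in control kidney. The 8 genes of the myofibroblast and smooth muscle list had a mean of 7.83 in NTS/PGE2 kidney, 7.88 in NTS kidney and 8.47 in control kidney. Their part in the periostin difference was not tested.

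**Figure D2:**
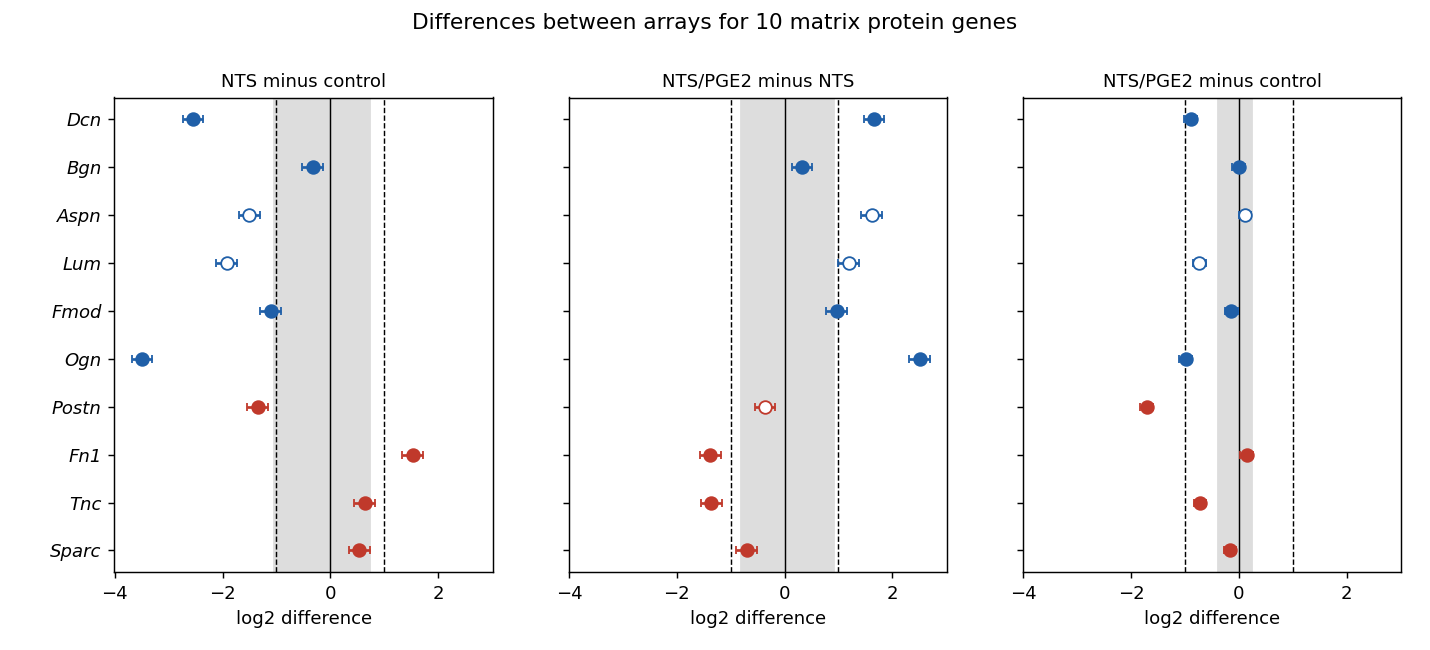
Log2 differences (horizontal axis) of the 10 members in the 3 comparisons, with proteoglycans in blue and glycoproteins in red; bars are the technical SD from genes with 2 bright probe sets (0.19, 0.19 and 0.12), grey bands run from the 5th to the 95th percentile of all genes tested, dashed lines mark 2-fold, and open symbols failed the filter on dim genes. Ogn and Dcn lie farthest left in NTS minus control and farthest right in NTS/PGE2 minus NTS.

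Counted by the rule of size, 8 of the 10 members passed the filter for NTS against control, and of these 4 were lower by 2-fold or more (Ogn, Dcn, Postn and Fmod) and 1 was higher (Fn1). Ogn, Postn and Fmod were under the array median in NTS kidney and passed through their control values alone, so that only Dcn of the 4 was above the median on both arrays. Of all 11778 genes compared, 5.42% were that much lower and 2.7% that much higher. Without the filter the counts were 6 lower and 1 higher of 10, against 3.37% and 1.78% of all 19938 genes. For NTS/PGE2 against NTS, 7 members passed, with 2 higher by 2-fold or more (Ogn and Dcn) and 2 lower (Fn1 and Tnc). Ogn passed through its NTS/PGE2 value alone and Tnc through its NTS value alone. The shares of all genes compared were 4.15% higher and 3.28% lower. Between NTS/PGE2 and control, 8 members passed, and of these 1 was lower (Postn) and 0 were higher, against 0.659% and 0.0607% of all genes compared. Postn passed there through its control value alone. Ogn, at -0.99, and Dcn, at -0.89, lay just inside 2-fold in that comparison. Both comparisons of the NTS array share that array, so their opposite signs are not independent.

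What was left of the NTS difference in NTS/PGE2 kidney varied between members. Among the proteoglycans, the log2 difference between NTS/PGE2 and control was -0.99 for Ogn, -0.89 for Dcn, -0.73 for Lum, -0.14 for Fmod, 0 for Bgn and 0.12 for Aspn. For Lum, Dcn and Ogn this was 38.1%, 35.0% and 28.2% of the difference seen in NTS kidney. For Fmod and Fn1 it was 12.5% and 9.79%. Tnc, Sparc and Aspn lay on the other side of control, Sparc by -0.16 and Aspn by 0.12, which are close to the technical SD of 0.12. Postn lay farther from control in NTS/PGE2 kidney than in NTS kidney, at 127% of the NTS difference. Lum, Ogn, Fmod and Postn were under the array median in NTS kidney, so their percentages are uncertain. Lum also failed the filter on dim genes in every comparison.

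Most decorin family genes lie in 3 chromosomal groups, and the NTS difference was found in each. In the RefSeq gene order of mouse assembly GRCm38.p6, Dcn, Lum, Kera and Epyc are successive protein-coding genes on chromosome 10. Ecm2, Aspn, Omd and Ogn are successive on chromosome 13, and Optc, Prelp and Fmod on chromosome 1. Bgn is on the X chromosome. On chromosome 13 all 4 genes were lower in NTS kidney: Ecm2, which encodes a related leucine-rich matrix protein, at -1.87, and Omd, the osteomodulin gene, at -0.77, beside Aspn and Ogn. All 4 were under the array median of 7.11 in NTS kidney, with Ecm2 at 5.90 and Omd at 5.31. Omd was there under the 25th percentile of 5.78, and it failed the filter on dim genes in every comparison. The size of the differences in this group is therefore uncertain. On chromosome 1, Prelp, a relative thought to anchor basement membranes, had 10.01 in NTS/PGE2 kidney, 7.15 in NTS kidney and 10.32 in control kidney. Its difference was -3.18 between NTS and control, less wide than that of Ogn, and 2.87 between NTS/PGE2 and NTS, wider than the 2.51 of Ogn. Kera and Epyc, the corneal and cartilage members next to Dcn and Lum, were dim and had equal values in NTS and control kidney.

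**Figure D3:**
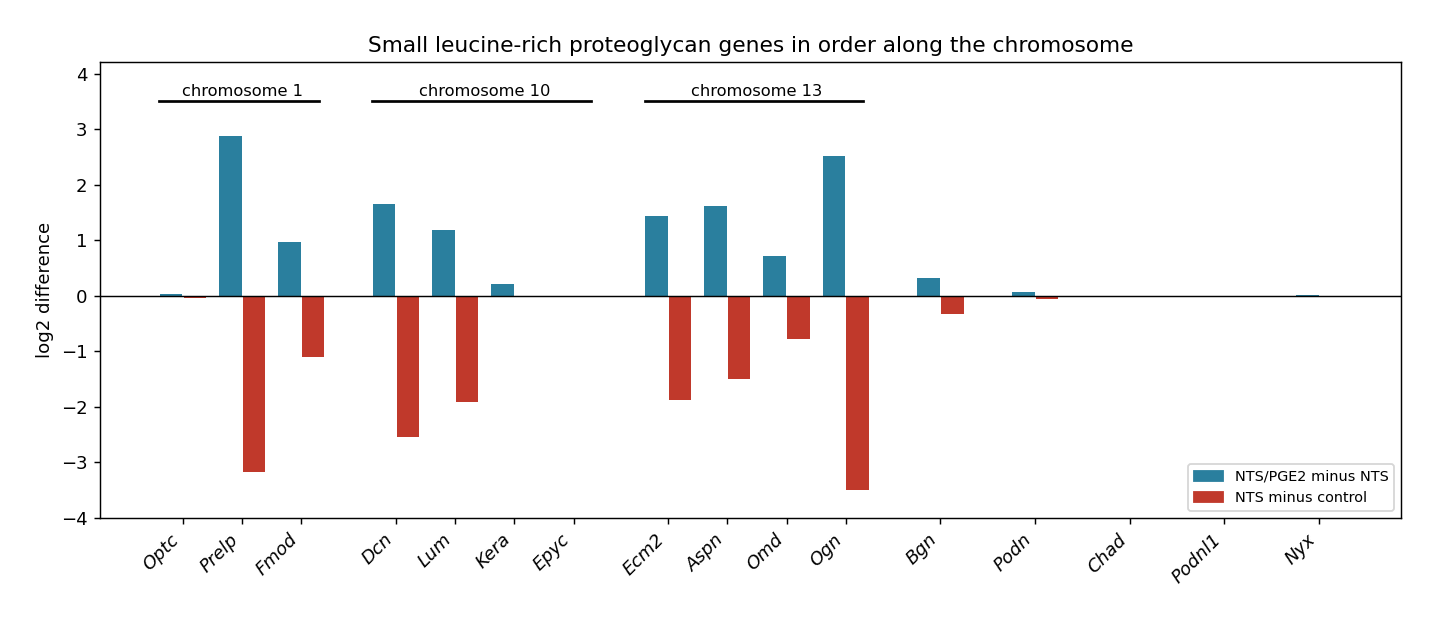
Log2 differences (vertical axis) of 16 small leucine-rich proteoglycan genes for NTS/PGE2 minus NTS (blue) and NTS minus control (red), with neighbouring genes drawn in chromosomal order under a bar; a gene with no bar had equal values. Differences of opposite sign stand side by side in each of the 3 groups, and Optc, Kera, Epyc, Podn, Chad, Podnl1 and Nyx have differences near 0.

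Over the 10 other family genes measured, 5 were lower and 0 higher in NTS kidney, 2 of them by 2-fold or more (Prelp and Ecm2), with a median of -0.02. In NTS/PGE2 kidney 7 were higher and 0 lower than in NTS kidney. Of all 19938 genes, 30.2% were lower and 32.8% higher in NTS kidney than in control kidney. Relative to NTS kidney, 35.1% were higher and 29.3% lower in NTS/PGE2 kidney. In the same 2 comparisons, Optc (-0.04 and 0.04), Podn (-0.07 and 0.07) and Nyx (0 and 0.01) lay within the technical SD of 0.19. Kera, higher by 0.20 in NTS/PGE2 kidney, was under the 25th percentile on every array. Only 4 of the 10 passed the filter. Ecm2, at 5.90 in NTS kidney, passed through its control value alone in the first comparison and its NTS/PGE2 value alone in the second. Prelp, at 7.15 in NTS kidney, lay just above that array's median of 7.11. Podn, which encodes podocan and was well above the median, had 8.92 in NTS/PGE2 kidney, 8.85 in NTS kidney and 8.92 in control kidney.

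Promoter sequence is given for 3 members: the chromosome 13 neighbours Ogn and Aspn, which were low in NTS kidney, and Postn, whose order of levels no other member had. Sequences are from RefSeq on GRCm38.p6, 250 bases before to 50 bases after a transcript start, and the table matched 7 of the 10 members with 9 starts; Dcn, Lum and Fn1 were not matched. Each is written 5′ to 3′ on the strand of the gene, and capitals mark the TATA box letters TATAAA. The Ogn window is chr13:49607765-49608064, the Aspn window chr13:49544193-49544492 and the Postn window, the second of 2 starts, chr3:54360857-54361156, all on the plus strand.
Ogn: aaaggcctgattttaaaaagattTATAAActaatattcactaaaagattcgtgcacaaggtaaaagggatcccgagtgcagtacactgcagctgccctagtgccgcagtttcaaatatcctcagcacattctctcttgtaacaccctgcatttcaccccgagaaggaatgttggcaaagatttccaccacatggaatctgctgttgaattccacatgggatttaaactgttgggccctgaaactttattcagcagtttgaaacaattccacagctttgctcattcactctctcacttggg
Aspn: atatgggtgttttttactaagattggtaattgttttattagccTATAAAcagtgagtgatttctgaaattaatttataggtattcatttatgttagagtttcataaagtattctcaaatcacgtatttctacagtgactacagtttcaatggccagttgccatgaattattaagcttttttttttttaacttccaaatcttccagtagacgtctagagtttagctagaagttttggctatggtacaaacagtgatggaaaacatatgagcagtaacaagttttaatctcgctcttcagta
Postn: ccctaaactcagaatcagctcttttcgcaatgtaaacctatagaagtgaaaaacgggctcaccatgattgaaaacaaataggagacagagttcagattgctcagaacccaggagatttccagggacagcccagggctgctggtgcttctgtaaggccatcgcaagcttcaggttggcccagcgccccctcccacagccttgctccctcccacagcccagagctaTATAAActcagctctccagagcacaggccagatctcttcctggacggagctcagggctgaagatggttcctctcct
The Postn match began 26 bases before the start, at -26, and those of Ogn and Aspn lay farther away, at -227 and -207. TATAAA was searched on the gene's strand alone and occurred in 8.32% of all 32851 promoter windows. It was found in 5 of the 9 member windows, among them the 2 overlapping windows of Tnc, and not in those of Fmod, Sparc, Bgn or the other Postn start. Searched on both strands, the cAMP response element TGACGTCA, its shorter core TGACG, which lies within it, and the AP-1 site TGANTCA had 0 matches in the 9 member windows. They occurred in 1.79%, 20.8% and 7.81% of all windows. These letters are a description of the windows, and their absence says nothing of a factor's action.

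Other matricellular genes did not share a direction with Fn1 and Tnc as a group. Of 18 measured, 2 were higher and 10 lower in NTS kidney than in control kidney, with a median of -0.07. Of all 19938 genes, 32.8% were higher and 30.2% lower. Ccn5, at 0.02, and Comp and Ccn4, at -0.08 and -0.06, lay within the technical SD of 0.19. The filter was passed by 10 of the 18. Spp1, the osteopontin gene, was on the list but not among the genes measured. The 1 gene higher by 2-fold or more was Tgfbi, which encodes a protein related to periostin. Tgfbi had 8.35 in NTS/PGE2 kidney, 10.32 in NTS kidney and 9.07 in control kidney. Its difference was 1.26 between NTS and control and -1.97 between NTS/PGE2 and NTS. Thbs1, the thrombospondin 1 gene, was lower in NTS kidney at -0.77, tenascin XB (Tnxb) at -0.68 and the osteonectin relative Sparcl1 at -0.61. The connective tissue growth factor gene Ccn2 had 11.74 on all 3 arrays.

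The collagens that these proteins bind were read in a list of 16 measured genes of matrix and TGF-beta ligands. In NTS kidney 10 were higher and 4 lower than in control kidney, with a median of 0.08. The fibrillar collagen genes Col1a1 and Col3a1 stood higher by 2.06 and 1.19 and Col1a2 by 0.92, so collagen I and decorin transcripts differed in opposite directions. Col14a1, whose product binds decorin on fibrils, was lower at -1.15, on the side of the proteoglycans. In NTS/PGE2 kidney Col1a1 was lower than in NTS kidney at -2.08, Col3a1 at -1.12 and Col1a2 at -0.97, while Col14a1 was higher by 0.85. The TGF-beta 1 gene Tgfb1 had 8.61 in NTS/PGE2 kidney, 8.96 in NTS kidney and 8.90 in control kidney.

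Receptors of the members mostly differed little. Of 18 measured, 10 were higher and 8 lower in NTS kidney, 1 each by 2-fold or more, with a median of 0.04. Of all genes compared, 2.7% were that much higher and 5.42% that much lower. Cd44, a hyaluronan receptor that also binds matrix proteins, was higher in NTS kidney by 1.35 and lower in NTS/PGE2 kidney than in NTS kidney at -1.58. It passed the filter in both comparisons through its NTS value alone. Kdr, the endothelial VEGF receptor to which decorin can bind, was lower in NTS kidney at -1.67. The integrin chain genes Itgb3 and Itgb1 were higher by 0.79 and 0.59 and Itga8 lower at -0.59. The biglycan receptor gene Tlr2 had 7.51 in NTS/PGE2 kidney, 7.54 in NTS kidney and 7.51 in control kidney.

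None of the 20 enzymes that build chondroitin and dermatan sulfate chains differed by 2-fold in any comparison. Their median was 0.00 for NTS against control, with 7 higher and 9 lower. The widest differences were in Chst15, a sulfotransferase, at -0.86, and in Xylt1, which starts the chain, at -0.68. In NTS/PGE2 kidney these were higher than in NTS kidney by 0.84 and 0.63.

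Most fibroblast and pericyte markers moved with the proteoglycans. Of 16 measured, 11 were lower and 2 higher in NTS kidney than in control kidney, 6 of them lower by 2-fold or more, with a median of -0.82. Of all 19938 genes, 30.2% were lower and 32.8% higher, and 3.37% were lower by 2-fold or more. The 2 higher markers were Cspg4 at 0.25 and Gli1 at 0.08, and 3 markers had equal values. In NTS/PGE2 kidney 11 were higher and 2 lower than in NTS kidney, with a median of 0.68. The matrix gene Dpt had -2.20 for NTS against control, the stromal transcription factor Tcf21 -1.88, Cd34 -1.79, the growth factor receptor genes Pdgfra -1.33 and Pdgfrb -1.22. Dpt had 5.51 in NTS kidney, under that array's 25th percentile of 5.78, which may be background, so the size of its difference is uncertain. It passed the filter there through its control value alone and failed it in NTS/PGE2 against NTS. The mean level of the list was 8.07 in NTS/PGE2 kidney, 7.45 in NTS kidney and 8.21 in control kidney. Its part in the proteoglycan differences was not tested. Some of its genes, such as Cd34 and Tcf21, are also expressed in endothelium or podocytes. The same order was seen outside the stroma. All 8 endothelium genes were lower in NTS kidney than in control kidney, with a median of -1.72, and higher in NTS/PGE2 kidney than in NTS kidney, with a median of 1.44. Of 7 nephron genes, 6 were lower in NTS kidney than in control kidney, with a median of -0.80, and 7 were higher in NTS/PGE2 kidney than in NTS kidney, with a median of 1.10.

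Injured tubule markers moved with Fn1, Tnc and Sparc. All 8 were higher in NTS kidney than in control kidney, with a median of 2.18 and Havcr1 (Kim-1) at 5.86. All 8 were lower in NTS/PGE2 kidney than in NTS kidney, with a median of -2.55. By 2-fold or more, 6 were higher and 7 lower in those comparisons, against 2.7% and 3.28% of all genes compared. Havcr1, Krt20 and Timp1 were under the array median in control kidney, at 6.77, 6.48 and 6.70. They passed the filter for NTS against control through their NTS values alone, so the size of these differences is uncertain. Vcam1, at 0.17 and -0.18, lay within the technical SD of 0.19. Macrophage markers went both ways, with Cd68 at 2.23 and Csf1r at -1.09 for NTS against control. Neither part in the glycoprotein differences was tested.

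**Figure D4:**
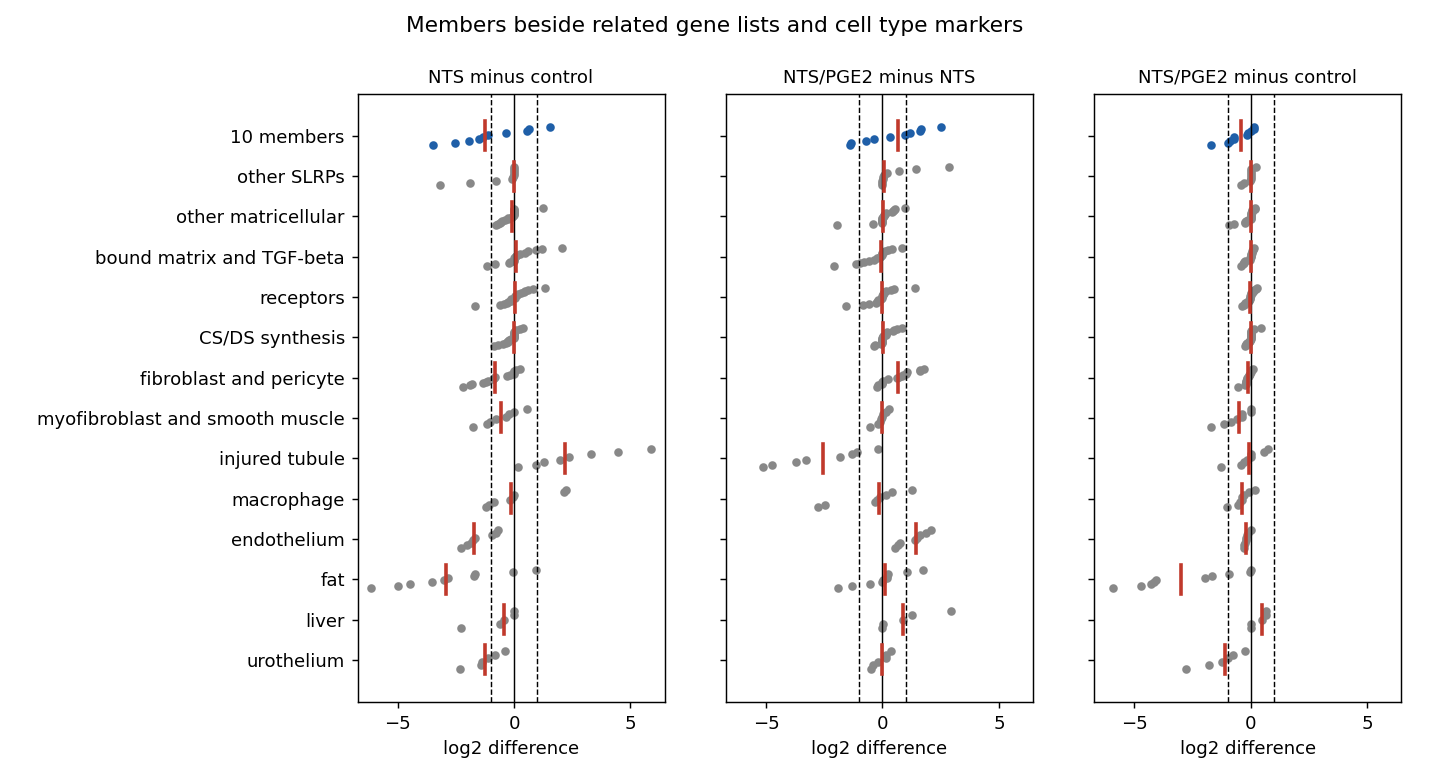
Log2 differences (horizontal axis) of the 10 members (blue) and of genes in 13 lists (grey) for the 3 comparisons, 1 point per gene, with the median in red and 2-fold as dashed lines; SLRP stands for small leucine-rich proteoglycan and CS/DS for chondroitin and dermatan sulfate. Fibroblast and pericyte markers lie mostly left of 0 in NTS minus control and right of it in NTS/PGE2 minus NTS, and 9 of 10 fat genes lie left of 0 in each comparison with control.

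Genes with the most similar pattern were sought among 11282 genes that passed the filter, by distance between their 2 log2 differences from control. With 2 coordinates per gene such matches describe the arrays alone. Nearest to Dcn were Penk, Rsad2 and Bhmt, the first at -2.59 in NTS kidney and -0.91 in NTS/PGE2 kidney relative to control. Tldc2 was nearest to Ogn, 0.16 log2 units away, followed by Nat8f1 and Alas2 at 0.58 and 0.74. Nearest to Lum were Sucnr1, Hnmt and Tent5c, to Fmod were Adgrf5, Nars2 and Dusp6, and to Aspn were Hoxc6, Kl and Aqp1. Fn1 lay nearest to Incenp, Slc25a22 and Tpx2, and Tnc to Mgst1, Sh3bgrl3 and Nat2. Postn lay nearest to Upk1a, a urothelial gene, then to Apoc1 and to Plin1, a fat gene, at distances of 0.13, 0.28 and 0.33.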

How the data were processed

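Biotin-labelled cDNA from 250 ng of kidney RNA was hybridised to each of 3 arrays, per the labels' protocols. The authors deposited log2 values from RMA in Affymetrix Expression Console, per the submitters' processing notes. Their versions and genome build: not given in the sources used here. Of 35556 probe sets, 21789 had 1 gene symbol, 1621 several and 12146 none here. Symbols came from the platform annotation, and 21698 matched the RefSeq table by gene identifier. Probe sets of a gene were averaged, giving 19938 genes. A gene was compared where its brighter value was at or above the array median, and counted at a log2 difference of 1. No test was run. Named genes were all members, up to 4 per list with the largest difference in the first or second comparison, and the 3 nearest genes of each member that differed 2-fold; other genes were chosen after their values were seen. Members and lists were chosen with earlier results of these data known. Protein identities were not computed. The calculation was tested on simulated data. Python 3.11.15, pandas 2.3.3 and statsmodels 0.14.6 were used.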

Additional observations from a re-analysis of the deposited data

How the results depend on the processing

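No paired analysis was possible because each group had 1 array, and no array could be left out of a comparison. Member differences were recomputed with arrays centred on the median, with a loess correction on the mean level, with the brightest probe set and with probe sets of several symbols included. All 120 values stayed within the technical SD, the widest shift being 0.036. With 1 probe set per member, taking the brightest could not alter a value, and including probe sets of several symbols altered none. Median centring shifts every gene of an array by the same amount. These settings are therefore weak checks of the members. Of 84 recomputed counts, 15 moved by over 1.5 times. At a threshold of 1.5-fold, NTS kidney had 898 higher and 1406 lower genes than control kidney (the first comparison), NTS/PGE2 kidney had 1167 and 1045 relative to NTS kidney (the second), and 64 and 248 relative to control kidney (the third). Members numbered 2 higher in the first comparison and 4 lower in the third. With the filter at the 75th percentile, 43 genes were lower in the third comparison, and members numbered 2 lower in the first, 1 higher and 1 lower in the second and 0 lower in the third. Without the filter 4 members were higher in the second. With arrays centred on the median 2 members were lower in the third, since Ogn lay near 2-fold. A stricter filter leaves fewer genes and a lower threshold admits smaller differences by construction. Leaving out fat, urothelium and smooth muscle genes gave 623 lower genes in the first comparison and 64 in the third, against 638 and 76 with them. By construction only the genes left out drop from these counts, so they do not gauge such tissue in other genes' values.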
